A study of Mus musculus with 20 samples.

Results

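The gene sets described here carry the name of a leukaemia. They were found in the enrichment reports of 7 comparisons as names containing LEUKEMIA or one of the tokens AML, APL, MLL and CML. Names containing HEMATOPOIE, HOXA9, MEIS1, B_CELL or T_CELL were left out. The rule found 97 of the 3886 gene sets listed in any report, and every one of the 97 was listed in all 7 comparisons. Of these, 25 have names ending in _DN and are counted apart from the other 72. The ending marks genes lower in the named state, or lower in methylation for sets chosen on methylation. In the myeloid comparisons the 97 sets held 16 to 348 genes each, with a median of 46, against a median of 44 over all sets. The label of acute leukaemia covers most but not all of them. Chronic or hairy cell leukaemia was named in 12, lymphoid or hairy cell disease in 10, DNA methylation in 12, and 2 were KEGG pathway diagrams. These groups overlap, and some of the lymphoid, methylation and KEGG names are of acute leukaemia.

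Acute myeloid leukaemia (AML) arises when a myeloid precursor keeps dividing and stops maturing, and its subtypes resemble different stages and branches of normal myelopoiesis. Acute promyelocytic leukaemia (APL) carries the PML-RARA fusion and halts at the promyelocyte. Core-binding factor leukaemias carry AML1-ETO or CBFB-MYH11 fusions. Fusions of MLL, a histone methyltransferase, hold the HOX genes of early progenitors active, and NPM1-mutated AML also expresses HOX genes. The FAB M7 type is megakaryoblastic. Chronic myeloid leukaemia (CML) is driven by BCR-ABL in a stem cell that still gives rise to mature granulocytes. Most of the studies behind these sets profiled human patients, so each set was read as a list of genes that mark a myeloid stage or branch. No animal here had leukaemia according to the labels.

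The libraries were 20, all from C57BL/6 mouse material. Myeloid cells had been isolated from spleen and bone marrow of adult animals with a kit that depletes CD3e-positive cells, which removes T cells but is not a positive selection for myeloid cells. Bone marrow gave 3 libraries from healthy animals, 3 from animals bearing B16F10 tumours and 2 from animals bearing YUMM3.3 tumours, and spleen gave 2 from each of these conditions. Each melanoma line was also profiled in culture, as 3 libraries. B16F10 descends from a spontaneous melanoma and spreads readily to the lung, and YUMM3.3 was derived from an engineered tumour model. The labels give no age, tumour site or time since tumour injection, and do not say whether libraries came from separate animals. The files used here hold no values for single genes, so the myeloid label was not checked against markers.

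Each value below is a normalised enrichment score (NES) from the authors' deposited table, which measures how strongly a set's genes gather at one end of the list of genes ranked between 2 groups. A positive sign was given to sets higher in the group named first. A set was called at a deposited false discovery rate (FDR) q below 0.05. There is 1 value per set and comparison, so no SD between libraries could be given. The smallest nonzero nominal p listed was 0.00103, below the 0.05 that relabelling 3 against 3 libraries can reach at best (0.167 with 2 against 2), so the q values do not measure the spread between animals. Sequencing depth is unknown here. Within a tissue the 3 comparisons share libraries and are not independent of each other. In bulk samples like these, fewer cells of a type and less RNA per cell cannot be told apart.

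Most leukaemia sets did not pass the threshold, and in 6 of the 7 comparisons a smaller share of them than of all sets was higher. Between tumours in spleen the order was the other way. In B16F10-bearing against healthy marrow, 8 of 72 sets (11.1%) were higher and 6 (8.33%) lower, against 20.1% and 5.00% of all 3883 sets. In YUMM3.3-bearing against healthy marrow, 2 (2.78%) were higher and 3 (4.17%) lower, against 9.68% and 6.52%. Between tumours in marrow, 2 were higher with B16F10 and 3 lower, against 8.09% and 8.40% of all sets. In B16F10-bearing against healthy spleen, 8 of 72 sets (11.1%) were higher and 0 lower, against 16.6% and 1.60%. In YUMM3.3-bearing against healthy spleen, 4 (5.56%) were higher and 6 (8.33%) lower, against 15.6% and 5.31%. Between tumours in spleen, 12 (16.7%) were higher with B16F10 and 1 (1.39%) lower, against 9.63% and 1.47%. In the cell lines, 4 (5.56%) were higher in YUMM3.3 and 0 lower, against 11.8% and 1.47% of 3871 sets. Of the 25 sets ending in _DN, 4 were higher and 3 lower with B16F10 against healthy marrow, 2 and 1 with YUMM3.3 against healthy marrow, and 0 and 1 between tumours in marrow. In spleen the same 3 contrasts gave 4 and 0, 3 and 2, and 6 and 0, and the cell lines 3 and 1. These shares are descriptions; no test of the leukaemia sets as a group was made.

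**Figure D1:**
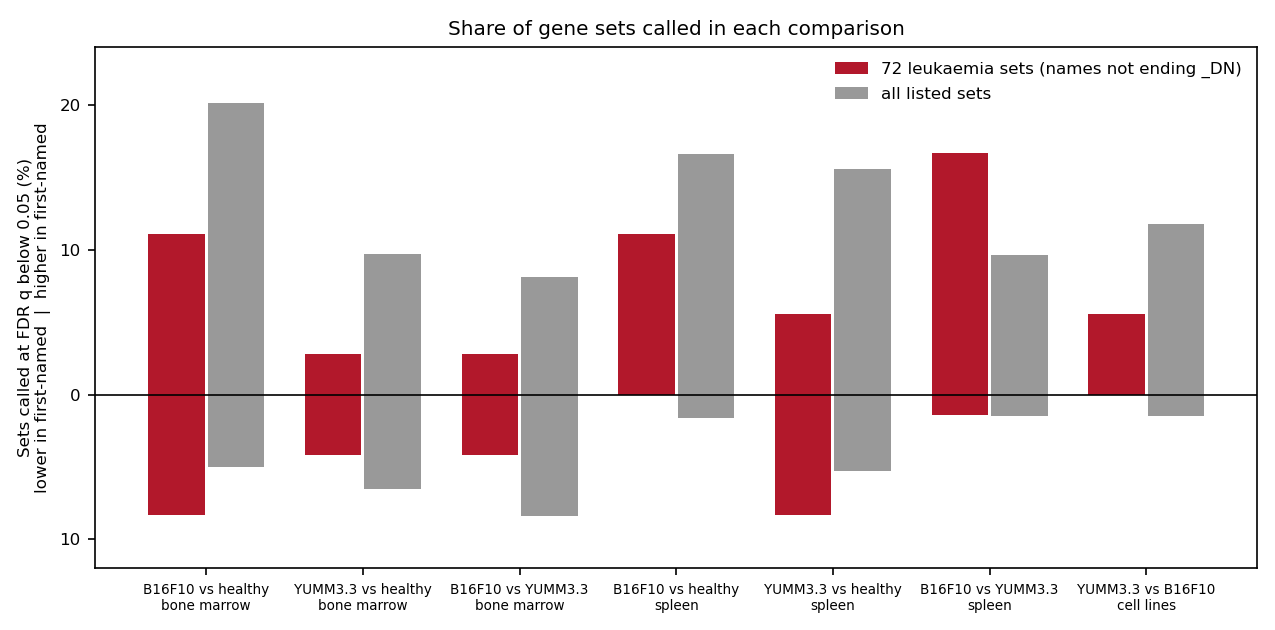
Share of gene sets called at an FDR q below 0.05 in each comparison, in percent, with sets higher in the first-named group above 0 and lower below 0. Red bars are the 72 leukaemia sets with names not ending in _DN and grey bars all listed sets. The red bar is taller than the grey one above 0 only between tumours in spleen, where it reaches 16.7% against 9.63%.

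Of the 97 sets, 44 were called in at least 1 of the 7 comparisons, 39 of them in a myeloid comparison, and 53 in none. Called sets made 89 calls in all, of which 19 also had a family-wise (FWER) p below 0.05, and these came from 10 sets. GRAHAM_CML_DIVIDING_VS_NORMAL_QUIESCENT_UP passed that stricter limit in 4 comparisons and VALK_AML_CLUSTER_8 in 3. Some sets (12) were called higher in one comparison and lower in another. Comparisons that share libraries can give such a count by construction, since a set low with YUMM3.3 alone is lower against healthy and then higher with B16F10 against YUMM3.3. One set, VALK_AML_CLUSTER_8, was called in 5 comparisons, the most of any of the 97. The counts in this paragraph were not made over all 3886 sets. They therefore do not show whether leukaemia sets were called more or less often than other sets.

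**Figure D2:**
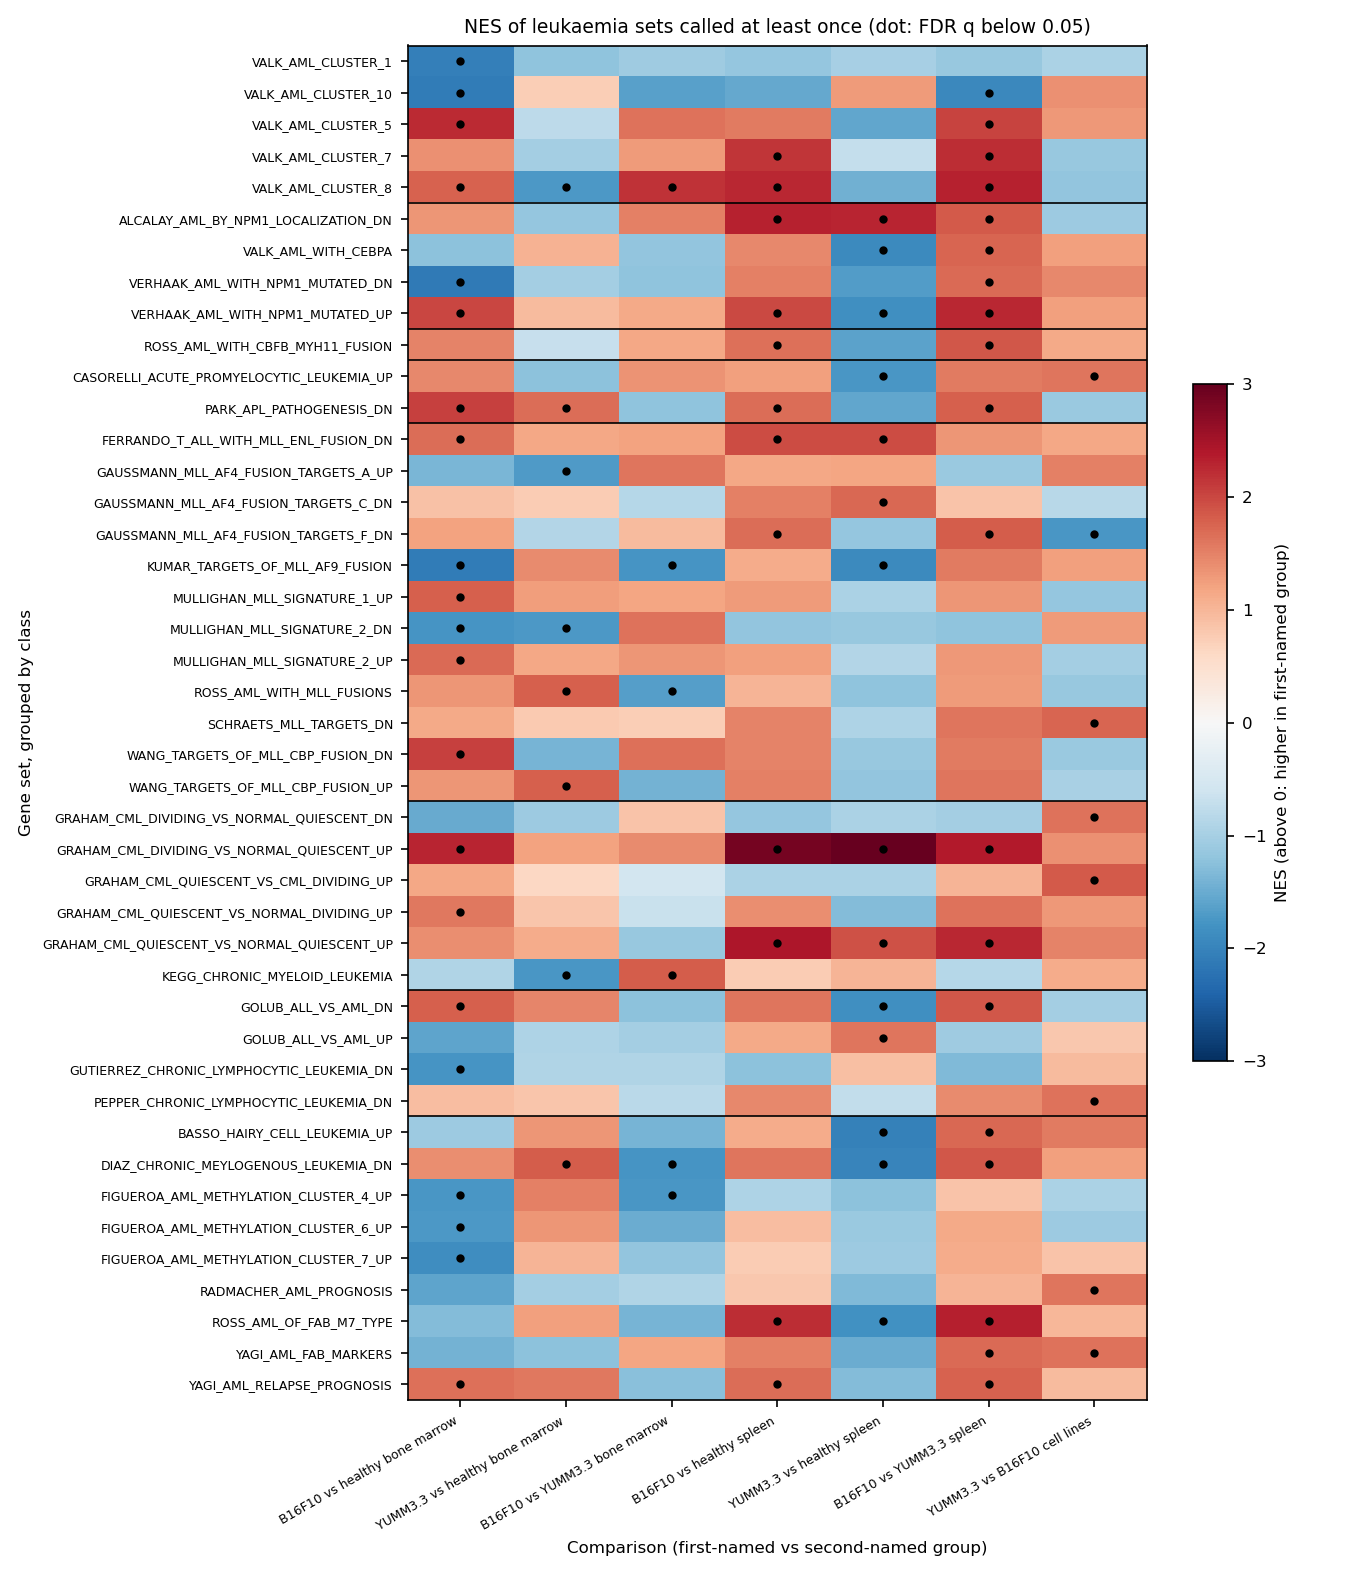
NES of 43 of the 44 leukaemia sets called at least once, one row per set and one column per comparison, with red above 0 (higher in the first-named group), blue below 0 and a dot for an FDR q below 0.05. Horizontal lines part the classes, and the column of YUMM3.3-bearing against healthy spleen has several blue cells where the spleen columns on either side are red, as for ROSS_AML_OF_FAB_M7_TYPE at -1.81 between 2.22 and 2.33.

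The VALK clusters are the leading genes of groups of AML patients found by expression alone, and 15 of them were listed. Clusters 5, 7 and 8 were higher and clusters 1 and 10 lower in contrasts with B16F10-bearing animals. Values for each tissue are given in the order B16F10-bearing against healthy, YUMM3.3-bearing against healthy, and B16F10-bearing against YUMM3.3-bearing. For VALK_AML_CLUSTER_8, a set of 20 genes, the authors' deposited table listed NES of 1.76, -1.72 and 2.16 in marrow, all called. In spleen the deposited NES of this set was 2.26, -1.45 and 2.32, and the first and last were called. Toward B16F10-bearing spleen, 75% of its genes lay within the leading 8% of the ranked list of the authors' deposited table. Its genes were thus higher with B16F10 in both tissues, and lower with YUMM3.3 than in healthy marrow, while in spleen the YUMM3.3 value had the same sign and was not called. The difference between tissues was not tested for this set or for the other clusters.

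VALK_AML_CLUSTER_5, 23 genes of a cluster made up mainly of monocytic leukaemias, had NES of 2.23, -0.79 and 1.64 in marrow in the authors' deposited table, with the first called. In spleen its deposited values were 1.56, -1.56 and 2.02, with the last called. VALK_AML_CLUSTER_7 had spleen NES of 2.14, -0.71 and 2.21 in the authors' deposited table, with the first and last called. Its deposited marrow values had the same signs, 1.38, -1.01 and 1.27, and none was called. VALK_AML_CLUSTER_10 was lower, and the authors' deposited table gave it -2.09, 0.73 and -1.63 in marrow and -1.53, 1.27 and -1.94 in spleen, with the first and the last called. VALK_AML_CLUSTER_1 was called lower in B16F10-bearing against healthy marrow, with a deposited NES of -2.05. The other 10 clusters passed in no comparison, so this class held both directions within the same contrast: 2 of 15 higher and 2 lower in B16F10-bearing marrow, and 3 higher and 1 lower between tumours in spleen. Clusters 1, 5, 7 and 10 hold 20 to 26 genes each.

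AML sets by mutated gene were led by VERHAAK_AML_WITH_NPM1_MUTATED_UP, 154 genes higher in AML with mutated NPM1, the nucleolar protein nucleophosmin. Its NES in the authors' deposited table was 2.00, 0.95 and 1.14 in marrow, with the first called. In spleen the deposited values were 1.99, -1.84 and 2.27, all called. The set was therefore higher with B16F10 and lower with YUMM3.3 when each was set against the same healthy spleen libraries. Its counterpart VERHAAK_AML_WITH_NPM1_MUTATED_DN had the opposite sign in marrow, at -2.11, -1.02 and -1.21 in the authors' deposited table, with the first called. In spleen the counterpart moved to the same side, at 1.50, -1.67 and 1.69, and only the last of these deposited values was called. ALCALAY_AML_BY_NPM1_LOCALIZATION_DN, genes lower in AML with cytoplasmic NPM1, was higher in spleen with either tumour, with NES of 2.30, 2.28 and 1.85 in the authors' deposited table, all called. Its deposited marrow values of 1.32, -1.15 and 1.51 were not called. VALK_AML_WITH_CEBPA, named for the transcription factor of granulocyte fate, was called in 2 spleen contrasts, at -1.90 with YUMM3.3 against healthy and 1.75 between tumours in the authors' deposited table.

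Core-binding factor sets numbered 5, and 1 of them was called. ROSS_AML_WITH_CBFB_MYH11_FUSION was higher with B16F10 in spleen, with NES of 1.65 against healthy and 1.87 against YUMM3.3 in the authors' deposited table. Its deposited NES with YUMM3.3 against healthy spleen was -1.61, not called. The other 4 sets of AML1-ETO or CBFB-MYH11 leukaemia passed in no comparison.

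ROSS_AML_OF_FAB_M7_TYPE, 63 genes of megakaryoblastic leukaemia, was higher in spleen with B16F10 and lower with YUMM3.3. In the authors' deposited table its spleen NES was 2.22, -1.81 and 2.33, all called. Its deposited marrow values had the opposite signs, -1.29, 1.24 and -1.39, and none was called. Between tumours in spleen, 33% of its genes lay within the leading 5% of the ranked list of the authors' deposited table. Sets naming platelets or megakaryocytes had a median NES of the same sign as this set in each spleen contrast. With YUMM3.3 against healthy spleen 5 of 11 were lower and 1 higher (median NES -1.66), against 5.31% and 15.6% of all sets. Between tumours in spleen 4 were higher and 0 lower (median 1.62), against 9.63% and 1.47%. With B16F10 against healthy spleen 1 of those 11 was higher (median 1.28), against 16.6% of all sets. In marrow their medians were -1.34, -1.04 and -1.04, so with YUMM3.3 against healthy the signs were opposite. The part of platelets or megakaryocytes in the M7 result was not tested.

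**Figure D3:**
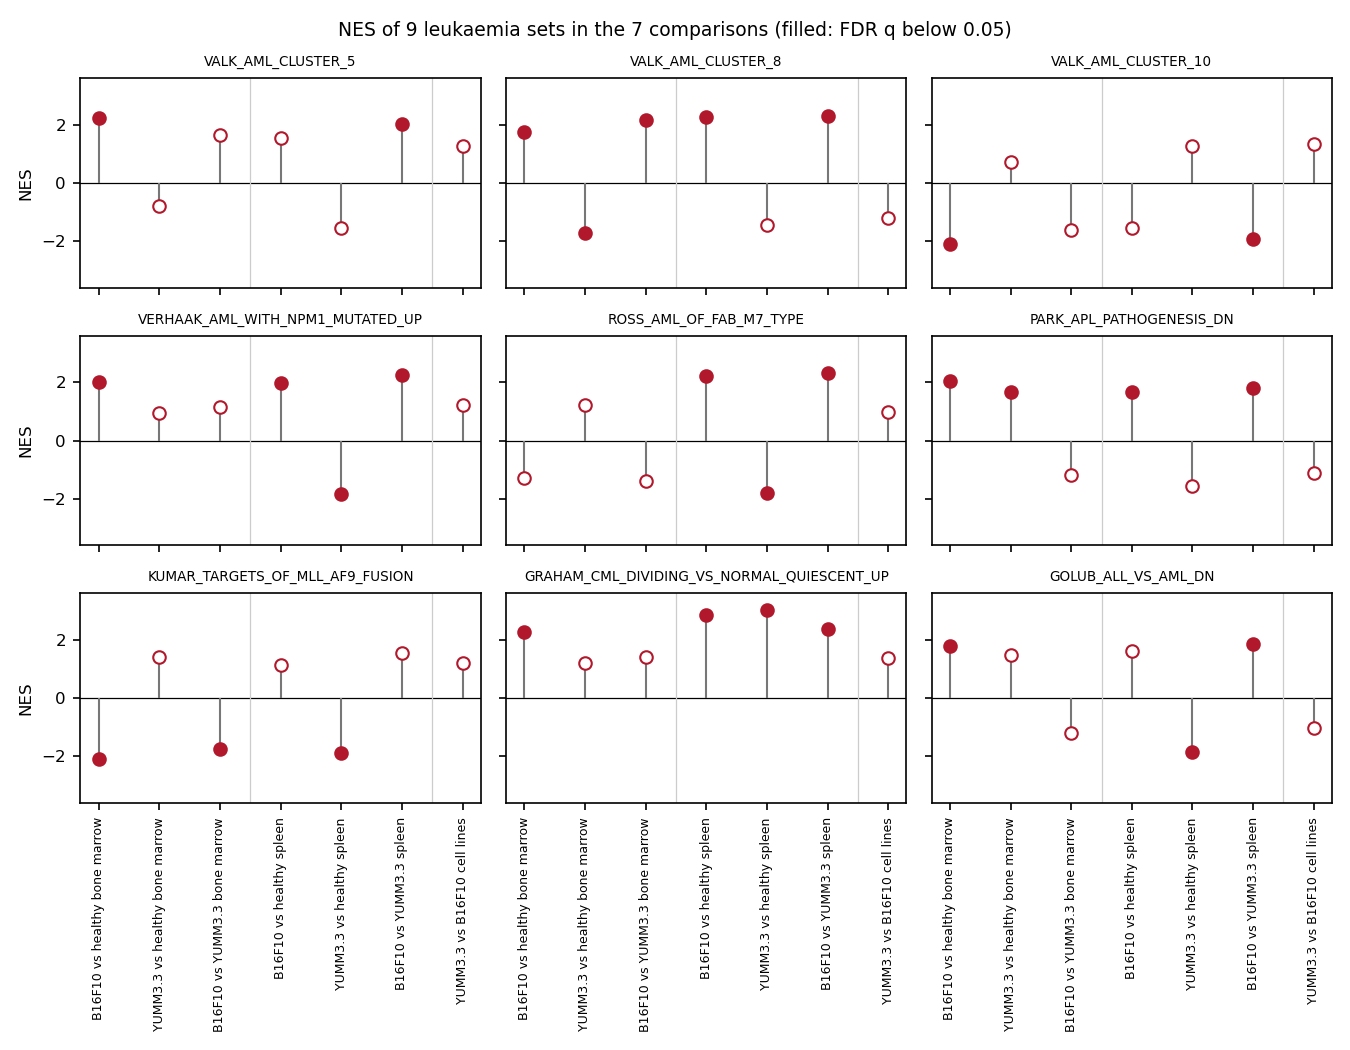
NES of 9 leukaemia sets in the 7 comparisons, one panel per set, with filled points for an FDR q below 0.05 and thin vertical lines between marrow, spleen and cell lines. GRAHAM_CML_DIVIDING_VS_NORMAL_QUIESCENT_UP lies above 0 throughout, up to 3.02, while VERHAAK_AML_WITH_NPM1_MUTATED_UP and ROSS_AML_OF_FAB_M7_TYPE change sign between the B16F10 and YUMM3.3 contrasts in spleen.

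Promyelocytic leukaemia sets were few and mostly below the threshold. PARK_APL_PATHOGENESIS_DN, 38 genes named as lower in the development of APL, was higher in tumour-bearing marrow of both kinds, with NES of 2.06, 1.67 and -1.20 in the authors' deposited table, the first and second called. Its deposited spleen NES was 1.68, -1.56 and 1.80, with the first and last called. Of the 5 promyelocytic sets not ending in _DN, none was called in any marrow contrast, and ROSS_AML_WITH_PML_RARA_FUSION was called nowhere, with deposited NES from -0.94 to 1.23. CASORELLI_ACUTE_PROMYELOCYTIC_LEUKEMIA_UP was lower with YUMM3.3 against healthy spleen, at -1.75 in the authors' deposited table.

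MLL sets were the most numerous class, with 18 not ending in _DN and 10 ending in it. KUMAR_TARGETS_OF_MLL_AF9_FUSION, the largest of the 97 sets with 348 genes, was lower with B16F10 in marrow and lower with YUMM3.3 in spleen. Its NES in the authors' deposited table was -2.09, 1.41 and -1.76 in marrow, with the first and last called. In spleen its deposited NES was 1.12, -1.91 and 1.55, with the second called. ROSS_AML_WITH_MLL_FUSIONS took the direction of YUMM3.3 in marrow, at 1.33, 1.79 and -1.65 in the authors' deposited table, with the second and last called. WANG_TARGETS_OF_MLL_CBP_FUSION_UP was likewise called in YUMM3.3-bearing marrow, at 1.80 in the authors' deposited table. Its counterpart ending in _DN was called with B16F10 instead, at a deposited NES of 2.06 against healthy marrow.

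The MULLIGHAN sets, from childhood AML with MLL rearrangement, split by direction in B16F10-bearing marrow. Both UP sets were higher against healthy, MULLIGHAN_MLL_SIGNATURE_1_UP at 1.79 and MULLIGHAN_MLL_SIGNATURE_2_UP at 1.69 in the authors' deposited table. MULLIGHAN_MLL_SIGNATURE_2_DN was lower, at -1.78, and was lower in YUMM3.3-bearing marrow too, at -1.72 in the authors' deposited table. FERRANDO_T_ALL_WITH_MLL_ENL_FUSION_DN was higher with B16F10 in marrow (1.68) and with either tumour in spleen (1.96 for each against healthy) in the authors' deposited table. Targets of the MLL-AF4 fusion from one source (GAUSSMANN, 12 sets) held few calls, namely GAUSSMANN_MLL_AF4_FUSION_TARGETS_A_UP at -1.70 with YUMM3.3 in marrow and GAUSSMANN_MLL_AF4_FUSION_TARGETS_C_DN at 1.73 with YUMM3.3 in spleen in the authors' deposited table. GAUSSMANN_MLL_AF4_FUSION_TARGETS_F_DN was higher with B16F10 in spleen, at a deposited NES of 1.67 against healthy and 1.81 against YUMM3.3. By sign alone, 15 of the 18 MLL sets not ending in _DN had an NES above 0 with YUMM3.3 against healthy marrow and 3 of 18 with YUMM3.3 against healthy spleen. Those shares were 59.7% and 30.6% over the 72 leukaemia sets not ending in _DN, and 53.1% and 48.3% over all sets. Most of these scores were small, and for each direction taken separately between 0 and 2 of the 18 were called in any comparison. With either tumour against healthy marrow, 2 were higher and 1 lower.

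Chronic myeloid sets gave the largest scores. GRAHAM_CML_DIVIDING_VS_NORMAL_QUIESCENT_UP, 162 genes higher in dividing CML stem and progenitor cells than in quiescent normal ones, was higher with B16F10 in marrow and with both tumours in spleen. Its NES in the authors' deposited table was 2.28, 1.20 and 1.41 in marrow, with the first called. In spleen its deposited NES was 2.86, 3.02 and 2.37, all called. With YUMM3.3 against healthy spleen, 53% of its genes lay within the leading 7% of the ranked list in the authors' deposited table. GRAHAM_CML_QUIESCENT_VS_NORMAL_QUIESCENT_UP, which compares non-dividing cells on both sides, was also called in all 3 spleen contrasts, at 2.43, 1.90 and 2.26 in the authors' deposited table. Its deposited marrow values of 1.40, 1.11 and -1.13 were not called. GRAHAM_CML_QUIESCENT_VS_NORMAL_DIVIDING_UP, 45 genes higher in quiescent CML cells than in dividing normal ones, was called in 1 comparison. This was B16F10-bearing against healthy marrow, at 1.58 in the authors' deposited table, close to the threshold (FDR q 0.0483).

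Sets naming the cell cycle or proliferation moved with the dividing CML set in some contrasts and not in others. Of 41 such sets, 18 were higher with B16F10 in marrow, 29 with B16F10 in spleen and 32 with YUMM3.3 in spleen, each against healthy. Between tumours in spleen, where the dividing CML set had its NES of 2.37, 2 of the 41 were higher and 1 lower. With YUMM3.3 against healthy marrow, where the dividing CML set had an NES of 1.20 and was not called, 1 of the 41 was higher and 8 lower (median NES -1.43). Between tumours in marrow, where the CML set was not called either, 19 of the 41 were higher with B16F10. Their part in the CML result was not tested, and which genes the lists share was not analysed here. KEGG_CHRONIC_MYELOID_LEUKEMIA, a pathway diagram of BCR-ABL signalling, behaved unlike the GRAHAM sets, with NES of -0.90, -1.75 and 1.82 in marrow in the authors' deposited table, the second and last called. Its deposited spleen values lay between -0.86 and 1.01, none called. DIAZ_CHRONIC_MEYLOGENOUS_LEUKEMIA_DN, spelled as in the reports and so counted outside this class, was called in opposite directions in the 2 tissues. For it the authors' deposited table listed 1.39, 1.81 and -1.76 in marrow and 1.60, -1.98 and 1.87 in spleen, with the second and last called in each tissue. It was higher with YUMM3.3 in marrow and lower with YUMM3.3 in spleen, a difference that was not tested.

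Lymphoid sets bear on the branch between myeloid and lymphoid identity. The GOLUB pair separates acute lymphoblastic leukaemia (ALL) from AML: genes of GOLUB_ALL_VS_AML_UP mark ALL and those of GOLUB_ALL_VS_AML_DN mark AML. In YUMM3.3-bearing against healthy spleen the ALL genes were higher, at 1.60, and the AML genes lower, at -1.85 in the authors' deposited table, both called. With B16F10 the AML genes were higher in marrow against healthy (1.79) and in spleen against YUMM3.3 (1.87) in the authors' deposited table. In marrow their deposited NES was also above 0 with YUMM3.3 against healthy (1.47) and below 0 between tumours (-1.22), neither called. With B16F10 against healthy spleen it was 1.61, not called. The ALL genes had a deposited NES of -1.58 with B16F10 against healthy marrow and 1.13 with B16F10 against healthy spleen, neither called. Both GOLUB sets are short, with 24 and 19 genes. BASSO_HAIRY_CELL_LEUKEMIA_UP, from a mature B cell leukaemia, was lower with YUMM3.3 against healthy spleen (-2.03) and higher with B16F10 against YUMM3.3 (1.72) in the authors' deposited table. GUTIERREZ_CHRONIC_LYMPHOCYTIC_LEUKEMIA_DN was lower with B16F10 in marrow, at -1.76 in the authors' deposited table. Of 26 sets naming B or plasma cells, 3 were higher and 2 lower with YUMM3.3 against healthy spleen, and 5 were higher and 4 lower with B16F10 against healthy marrow. Between tumours in spleen 0 of these sets were higher and 3 lower. Their part in the GOLUB and BASSO results was not tested.

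Among the remaining sets, 3 of DNA methylation clusters in AML accounted for 3 of the 6 sets lower in B16F10-bearing marrow. They were FIGUEROA_AML_METHYLATION_CLUSTER_7_UP at -1.87, FIGUEROA_AML_METHYLATION_CLUSTER_4_UP at -1.74 and FIGUEROA_AML_METHYLATION_CLUSTER_6_UP at -1.72 in the authors' deposited table. These sets were chosen on methylation in patients, not on expression, and without the 8 methylation sets of this kind the share lower was 4.69%. FIGUEROA_AML_METHYLATION_CLUSTER_4_UP was also lower between tumours in marrow, at -1.75 in the authors' deposited table. Sets built on outcome rather than stage were YAGI_AML_RELAPSE_PROGNOSIS, YAGI_AML_SURVIVAL and RADMACHER_AML_PROGNOSIS. Of these, YAGI_AML_RELAPSE_PROGNOSIS was higher with B16F10 in marrow (1.66), in spleen (1.67) and in spleen against YUMM3.3 (1.78) in the authors' deposited table. YAGI_AML_SURVIVAL was called nowhere. KEGG_ACUTE_MYELOID_LEUKEMIA was not called either, with deposited NES from -1.35 to 1.32.

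Signatures with both an _UP and a _DN set numbered 20, and they show whether a contrast runs along a signature or moves both of its ends. The FIGUEROA pairs among them were chosen on methylation, so their signs do not have that meaning. In B16F10-bearing against healthy marrow, the sets of 12 pairs had opposite signs and those of 8 pairs the same sign (60% opposite, against 51.6% of all 701 such pairs in the reports). Both ends were called in opposite directions for 2 pairs there, VERHAAK_AML_WITH_NPM1_MUTATED and MULLIGHAN_MLL_SIGNATURE_2, and in the same direction for 0. Of all 701 pairs, 25 were called at both ends in opposite directions and 22 in the same direction. In YUMM3.3-bearing against healthy marrow 11 pairs were opposite (55%, against 50.2% of all pairs), and between tumours in marrow 9 (45%, against 54.1%). In B16F10-bearing against healthy spleen, 6 pairs were opposite and 14 were not (30%, against 26.2% of all pairs). With YUMM3.3 against healthy spleen 10 of 20 were opposite (50%, against 56.6%), and the GOLUB pair was called at both ends, in opposite directions, as were 31 of all pairs. Between tumours in spleen 7 were opposite (35%, against 31.8%), and VERHAAK_AML_WITH_NPM1_MUTATED was called higher at both ends, 1 pair of 20 beside 13 of all 701 called at both ends in the same direction. No test of leukaemia pairs against other pairs was made.

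Marrow and spleen comparisons of one contrast share no library, so the tissues can be set side by side. Whether the same animals gave both tissues is not stated in the labels, so the tissues may not be independent. With B16F10 against healthy, 58 of the 97 sets had the same sign in both tissues (59.8%, against 70.2% of all sets). NES correlated across the 97 sets with Pearson's r of 0.52 and Spearman's rho of 0.63, given as a description since sets share genes. Both tissues called 6 sets in the same direction, which is 28.6% of the 21 marrow calls and 50% of the 12 spleen calls, and 0 in opposite directions. Over all sets those shares were 43.4% and 60%. The 6 were VALK_AML_CLUSTER_8, VERHAAK_AML_WITH_NPM1_MUTATED_UP, GRAHAM_CML_DIVIDING_VS_NORMAL_QUIESCENT_UP, YAGI_AML_RELAPSE_PROGNOSIS, FERRANDO_T_ALL_WITH_MLL_ENL_FUSION_DN and PARK_APL_PATHOGENESIS_DN. With YUMM3.3 against healthy, 44 of 97 sets had the same sign (45.4%, against 43% of all sets), with r of -0.04 and rho of -0.08. There, 0 of the 97 were called in the same direction in both tissues, and 1, DIAZ_CHRONIC_MEYLOGENOUS_LEUKEMIA_DN, in opposite ones. Over all 3883 sets, 98 were called in the same direction and 125 in opposite ones. Between tumours, 45 of 97 had the same sign (46.4%, against 44.3% of all sets), with r of 0.07 and rho of 0.13, against r of -0.18 over all sets. VALK_AML_CLUSTER_8 was the 1 leukaemia set called the same way in both tissues, and DIAZ_CHRONIC_MEYLOGENOUS_LEUKEMIA_DN the 1 called in opposite ways. Over all sets those counts were 16 and 58.

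**Figure D4:**
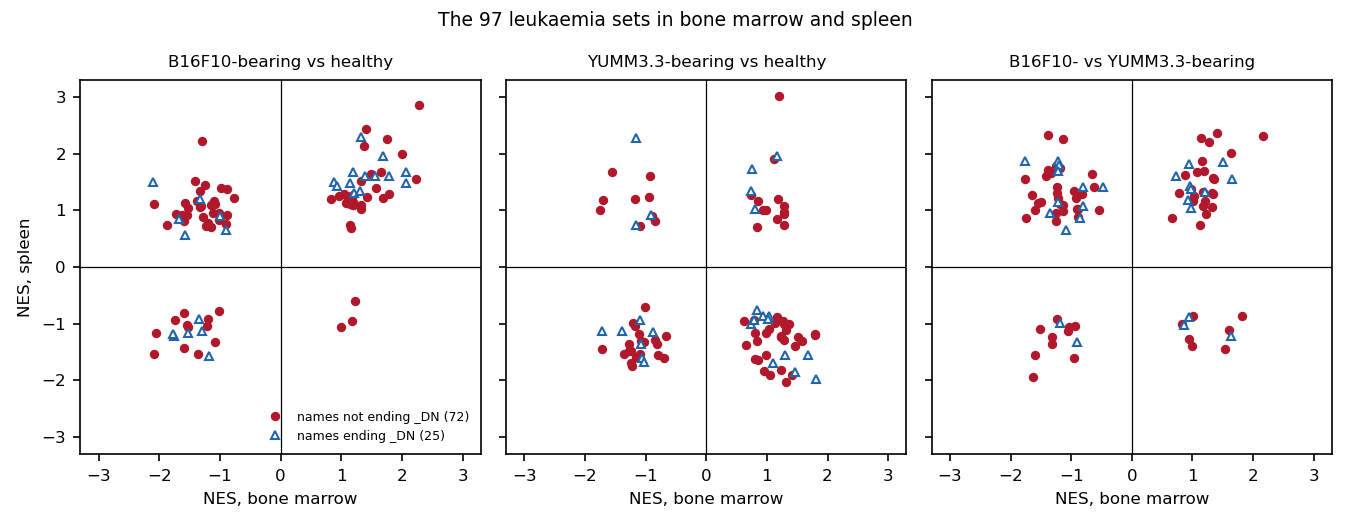
NES in spleen against NES in bone marrow for the 97 leukaemia sets, one panel per contrast, with red circles for names not ending in _DN and blue open triangles for names ending in it. With B16F10 against healthy the lower right quadrant is nearly empty (r 0.52), while all quadrants are filled in the other panels (r -0.04 and 0.07).

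The cell lines contain no blood cells. Between them 7 of the 97 leukaemia sets (7.22%) were higher in YUMM3.3 and 1 (1.03%) was lower, against 11.8% and 1.47% of all 3871 sets. YUMM3.3-bearing against healthy marrow gave the same number of calls, 8. The 3 with the largest NES higher in YUMM3.3 were GRAHAM_CML_QUIESCENT_VS_CML_DIVIDING_UP at 1.84, SCHRAETS_MLL_TARGETS_DN at 1.75 and YAGI_AML_FAB_MARKERS at 1.64 in the authors' deposited table. GAUSSMANN_MLL_AF4_FUSION_TARGETS_F_DN was the 1 set of the 97 called lower, at -1.75 in the authors' deposited table. Of the 8 calls in the lines, none had an FWER p below 0.05. The set leading in spleen, GRAHAM_CML_DIVIDING_VS_NORMAL_QUIESCENT_UP, had a deposited NES of 1.37 here, not called.

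Lists of other sets, chosen by name, gave a frame for these sets. The hematopoietic list took names containing HEMATOPOIE, HOXA9 or MEIS1 and was not limited to normal cells. With B16F10 against healthy spleen, 12 of 27 hematopoietic sets were higher and 1 lower (median NES 1.43), and 5 of 20 mature myeloid sets were higher and 0 lower (median 1.29), beside a median of 1.09 for the 72 leukaemia sets. With B16F10 against healthy marrow, 9 of 20 mature myeloid sets were higher and 3 lower (median 1.28), while the leukaemia median was -1.01 and that of all sets 0.96. Of the 27 hematopoietic sets, 5 were higher and 6 lower in that contrast (median 1.03). With YUMM3.3 against healthy spleen, the mature myeloid sets (1 higher, 3 lower, median -1.23) and the leukaemia sets (median -1.17) lay on the same side, and the hematopoietic sets on the other (median 0.86). Because NES is scaled separately on each side of 0, a median can jump between sides. Of 14 erythroid sets, 4 were higher and 0 lower with B16F10 against healthy spleen, and 3 were higher and 1 lower with YUMM3.3. Sets naming T or NK cells, which CD3e depletion should reduce in part, were split, with 4 of 14 higher and 2 lower with YUMM3.3 against healthy spleen. None of these differences between lists was tested.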

How the data were processed

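The values came from 14 deposited enrichment reports on 7 comparisons of groups among 20 libraries. Per the file headers, the deposited scores are an enrichment score and a normalised one (NES), beside the set's size and leading edge, and the deposited p-values are a nominal p, an FDR q and an FWER p. The submitters' processing notes name the mm10 build and the tools STAR 2.7.1a, featureCounts 1.6.0, DESeq2 1.22.2 and FastQC 0.11.8, with no role for any. The ranking metric, the kind of permutation and the matching of human to mouse genes are not given in the sources used here. No values per library or per gene were used.

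Each myeloid report was read as listing sets higher in its first-named group, since the deposited sign of NES followed no single convention, and the cell line reports by their up and down labels. As a check of this reading only, NES between tumours was correlated with the difference of each tumour's NES against healthy over 3883 sets. Pearson's r was 0.72 in marrow and 0.77 in spleen, and at most 0.49 and 0.14 with any 1 comparison turned. Were all 3 comparisons of one tissue turned together, or the lines turned, this check would not show it.

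Members, classes and lists were chosen by name with earlier results of these data known. Classes were matched in order by name, so YAGI_AML_WITH_T_9_11_TRANSLOCATION fell outside the MLL class. The named sets are the 3 with the largest NES size among those called, per comparison and direction, pairs ending in _UP and _DN, and sets called in opposite directions in 2 tissues. VALK_AML_CLUSTER_1, VALK_AML_CLUSTER_7, FIGUEROA_AML_METHYLATION_CLUSTER_7_UP, VALK_AML_WITH_CEBPA, GUTIERREZ_CHRONIC_LYMPHOCYTIC_LEUKEMIA_DN, KEGG_ACUTE_MYELOID_LEUKEMIA and the sets on core-binding factor, 11q23, PML-RARA, CASORELLI and outcome were named after their values were seen. So was GRAHAM_CML_QUIESCENT_VS_NORMAL_DIVIDING_UP. Counts, medians and correlations were computed with Python 3.11.15, pandas 2.3.3 and numpy 2.4.6, and the calling code was tested on simulated data. No p-value was computed. Alternatives tried were other thresholds on the deposited values, set sizes, 1 set per source, and leaving out lymphoid or methylation names. One called set is counted but not reported here. No sequence is shown, because no value is tied to a single gene.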

Additional observations from a re-analysis of the deposited data

How the results depend on the processing

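No paired analysis was possible because the reports hold no values per library, and for the same reason no library could be left out in turn. Shares are of the 72 leukaemia sets with names not ending in _DN, and moves are by over 1.5 times. Moves follow from the thresholds, which call more or fewer sets by construction; the cause of the others was not tested. At FDR q below 0.25, the share higher was 22.2% with B16F10 against healthy marrow, 12.5% with YUMM3.3 against healthy marrow, 15.3% between tumours in marrow, 22.2% with B16F10 against healthy spleen, 33.3% between tumours in spleen and 31.9% in the cell lines. The share lower, in the order of the myeloid comparisons of the report, was 27.8%, 6.94%, 20.8%, 4.17%, 38.9% and 5.56%. Shares under these alternatives were not computed over all sets, so they do not set the leukaemia sets apart from others. With YUMM3.3 against healthy spleen, 22 of the 72 sets had a q between 0.05 and 0.25 in either direction, beside 1059 of all 3883 sets. At FWER p below 0.05, the share higher was 2.78%, 0% and 1.39% in marrow, 6.94%, 1.39% and 8.33% in spleen and 0% in the lines, and the share lower was 1.39% with B16F10 against healthy marrow and 0% in the other 4 comparisons that had any. With 1 set per source (24 sets), the share lower was 4.17% with B16F10 against healthy marrow, 8.33% between tumours in marrow, 16.7% with YUMM3.3 against healthy spleen and 0% between tumours in spleen. The share higher was then 4.17% with YUMM3.3 against healthy marrow, 4.17% between tumours in marrow, 12.5% with YUMM3.3 against healthy spleen and 8.33% in the lines. Leaving out methylation sets, an alternative chosen after seeing the data, moved 1 of 14 shares, to 4.69% lower with B16F10 against healthy marrow. Sets of 25 to 200 genes and leaving out lymphoid names moved 0 of 14. No NES changed sign under any alternative, since none recomputes it. Among the named sets, 93 results were called at FDR q below 0.25 alone and 55 were not called at FWER p below 0.05.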

Other observations

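Sets named for 11q23 rearrangement, the lesion that breaks MLL, were listed from 2 sources. YAGI_AML_WITH_11Q23_REARRANGED (292 genes) had NES between -1.31 and 1.14 in the authors' deposited table and VALK_AML_WITH_11Q23_REARRANGED (16 genes) between -0.90 and 1.54, and neither was called in any comparison. ALCALAY_AML_BY_NPM1_LOCALIZATION_UP had the same sign as VERHAAK_AML_WITH_NPM1_MUTATED_UP in the 3 spleen contrasts, with deposited NES of 1.39, -1.49 and 1.57, none called.

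The smallest NES size called with B16F10 against healthy spleen was 1.62 on the higher side and 1.79 on the lower side in the authors' deposited table, and between tumours in spleen 1.67 and 1.79. VALK_AML_CLUSTER_10, at -1.53 with B16F10 against healthy spleen, was smaller in size than both limits and was not called.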
